A study of Mus musculus with 8 samples.

Results

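The stefin A genes are a cluster of small, closely related genes on mouse chromosome 16 that encode cytoplasmic inhibitors of cysteine proteases. They were taken by gene symbol, as all rows of the authors' gene table beginning with Stfa, Csta or Cstdc and a digit, which gave 7 of 20152 genes: Stfa3, Cstdc5, Csta1, Stfa1, Stfa2, Stfa2l1 and Cstdc4. The cluster was singled out because 4 of these genes (Stfa3, Cstdc5, Csta1 and Stfa2) had been chosen by the authors' adjusted p for mutant against control, the comparison described here, so their differences between genotypes are given as a description, and all 7 are accounted for. RefSeq places 11 genes with such symbols on chromosome 16, and the expression of Csta2, Csta3, Cstdc3 and Cstdc6 was not analysed here.

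The samples were E14.5 mouse back skin, dissected from embryos, in 2 groups of 4 libraries each, GNAQ R183Q mutant and wild-type control. GNAQ encodes the alpha subunit of the G protein Gq, and the R183Q change is known from human capillary malformations. The labels do not say which promoter or cell type drove the mutant protein, or the litter of the embryos. Each genotype's 4 samples are described as biologically independent, all 8 carry the same batch label, and the depth per library is unknown because the deposited values are averages.

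Stefin A belongs to the type 1 cystatins, single-domain proteins without a secretion signal that block papain-like cathepsins by wedging into their active-site cleft. In skin it is made by keratinocytes as they leave the basal layer, and it is cross-linked by transglutaminases into the cornified envelope, the protein shell of the barrier cell. Humans carry a single such gene, CSTA, whose loss causes a peeling skin disorder, whereas the mouse has an expanded cluster. Several of the mouse copies are also known from neutrophils and their precursors.

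Some of the copies are so alike that their sequences bear on the values below. Among the 21 pairs of the 7 genes, identity of the coding sequence in the GENCODE vM21 transcripts had a median of 79.3% and ran between 73.1% and 97.9%. The closest pair was Cstdc5 and Stfa1, which differ at 6 of 291 coding bases, shown in capitals in these coding sequences without the stop codon:
Cstdc5: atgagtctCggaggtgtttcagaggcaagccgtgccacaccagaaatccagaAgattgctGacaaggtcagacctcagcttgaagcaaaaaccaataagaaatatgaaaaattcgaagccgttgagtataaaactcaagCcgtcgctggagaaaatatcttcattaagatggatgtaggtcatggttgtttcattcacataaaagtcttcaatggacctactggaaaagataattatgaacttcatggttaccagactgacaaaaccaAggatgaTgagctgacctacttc
Stfa1: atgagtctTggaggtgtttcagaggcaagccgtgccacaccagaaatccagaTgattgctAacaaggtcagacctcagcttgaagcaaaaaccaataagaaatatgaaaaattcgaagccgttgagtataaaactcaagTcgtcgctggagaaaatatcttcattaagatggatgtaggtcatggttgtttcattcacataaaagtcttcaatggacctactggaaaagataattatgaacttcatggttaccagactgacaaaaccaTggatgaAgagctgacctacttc
The next closest pair was Stfa2 and Stfa2l1, which differ at 11 of 309 coding bases, of which 7 lie in the first 120, shown here with the differing bases in capitals:
Stfa2: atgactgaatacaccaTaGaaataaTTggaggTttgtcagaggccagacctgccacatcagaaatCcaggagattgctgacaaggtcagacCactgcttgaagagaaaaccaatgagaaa
Stfa2l1: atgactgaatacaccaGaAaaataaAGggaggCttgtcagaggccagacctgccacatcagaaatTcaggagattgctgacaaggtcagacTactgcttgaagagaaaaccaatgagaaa
Long stretches without a capital are stretches where a short read fits both genes. Cstdc4 is 96.9% identical to Csta2, while the closest copies of Csta1 and Stfa3 among the 10 cluster genes compared were Csta2 at 84.2% and Stfa2l1 at 81.6%. Cstdc3 was not among those compared.

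How much of each gene's transcripts is unique was counted in windows of 50 bases, pooled over all its annotated transcripts. Long transcripts can therefore lower a gene's share, and the shares are not directly comparable between genes. Cstdc4 had 1830 windows although its coding transcript has 414 bases, and Csta1 had 2782. Of the windows of Stfa3, 0% occurred in a transcript of any other gene, and of those of Csta1 0.791% did. The share was 25.1% for Cstdc5, 24.6% for Stfa2l1, 22.5% for Stfa1, 15.9% for Stfa2 and 11.0% for Cstdc4. Stfa3 and Csta1 can therefore be counted almost without ambiguity at this length, whereas the values of the other 5 are uncertain, since neither the read length nor the handling of reads that match several genes is stated in what was used here.

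The promoters are also related, and are shown because short runs of letters recur in them close to the annotated gene start. The 120 bases just before the start are given 5′ to 3′ on the gene's strand, from RefSeq promoters of GRCm38.p6, an earlier build than the mm39 named by the submitters. Capitals mark the longest run found in all 7 windows, CACACTCATT, and the longest found in all but 1, ACCTTTAAAACC:
Stfa3 (chr16:36455393-36455512, minus strand): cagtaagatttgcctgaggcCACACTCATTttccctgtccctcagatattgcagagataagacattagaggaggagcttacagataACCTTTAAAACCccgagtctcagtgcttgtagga
Cstdc5 (chr16:36367571-36367690, minus strand): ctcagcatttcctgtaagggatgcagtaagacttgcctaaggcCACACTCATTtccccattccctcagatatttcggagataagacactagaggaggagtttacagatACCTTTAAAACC
Csta1 (chr16:36131190-36131309, minus strand): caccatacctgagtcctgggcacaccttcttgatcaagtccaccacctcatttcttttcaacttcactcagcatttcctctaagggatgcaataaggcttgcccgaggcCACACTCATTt
Stfa1 (chr16:36277028-36277147, plus strand): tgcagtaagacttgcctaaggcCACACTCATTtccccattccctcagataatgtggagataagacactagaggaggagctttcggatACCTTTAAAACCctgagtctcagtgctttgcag
Stfa2 (chr16:36408364-36408483, minus strand): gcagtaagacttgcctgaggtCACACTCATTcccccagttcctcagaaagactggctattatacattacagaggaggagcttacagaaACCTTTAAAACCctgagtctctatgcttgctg
Stfa2l1 (chr16:36156691-36156810, plus strand): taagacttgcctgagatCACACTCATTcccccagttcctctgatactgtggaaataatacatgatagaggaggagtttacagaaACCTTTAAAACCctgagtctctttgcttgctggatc
Cstdc4 (chr16:36184092-36184211, plus strand): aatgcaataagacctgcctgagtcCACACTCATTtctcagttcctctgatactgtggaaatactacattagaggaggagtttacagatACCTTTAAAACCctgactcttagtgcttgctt
ACCTTTAAAACC begins 12 bases before the annotated start in Cstdc5 and between 32 and 36 bases before it in Stfa3, Stfa1, Stfa2, Stfa2l1 and Cstdc4. CACACTCATT begins 64 to 67 bases upstream of it in these 6 genes. In Csta1 CACACTCATT begins 11 bases before the annotated start, and ACCTTTAAAACC was not found in the bases searched, 250 before the start and 50 after it. At the spacing of the other genes its place would lie past those 50 bases, which was not examined. On either strand and over the same bases, ACCTTTAAAACC occurred in 11 of 32851 mouse promoters, or 0.0335%, and CACACTCATT in 37, or 0.113%. The 11 include those of 6 members and of the cluster genes Csta3 and Cstdc3, and the 37 those of all 7 members and Csta3. Both runs were taken from the members' own sequences, so that the members hold them is not a finding, and the fallen and the uncalled genes alike carry CACACTCATT.

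Other motifs were searched in the same windows on both strands. The letters TATAAA were in 0 of the 7 promoters, against 13.6% of all promoters. The AP-1 motif TGANTCA was in 1, that of Stfa3, against 7.81% of all promoters, and the KLF motif GGGNGNGG was also in Stfa3 alone, against 49.5%. The C/EBP motif TTNNGNAA was in 5 (Cstdc4, Cstdc5, Stfa1, Stfa2 and Stfa2l1), against 40.7%. The grainyhead-like motif AACCNGTT, whose opposite strand reads AACNGGTT, was in 0, against 2.09%. A match is only a match of letters and shows no binding, and the promoters of one gene family are not independent.

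In GNAQ R183Q skin most stefin A genes were lower than in wild-type skin. By the authors' deposited table, of the 7 genes 4 fell and 0 rose at an adjusted p of 0.05, against 2.46% of all 20152 genes called lower and 0.63% called higher. With a change of at least 2-fold as well, 4 fell, against 0.978% of all genes, and at an unadjusted p of 0.05, 5 were lower and 0 higher, against 8.23% and 5.94%. A linear model rebuilt from the mean z-scores had 5 lower at an unadjusted p of 0.05, against 6.51%, and 0 after adjustment, against 0.0% of all genes. The members were chosen on this contrast, so these shares are context and not evidence. All 7 log2 fold changes, mutant over wild type, were negative, with a median of -1.67, beside a median of 0.01 over all genes and 49% of genes with a negative value. Summed over the 7 genes, the implied level was 134 in GNAQ R183Q skin and 504 in wild-type skin, so the mutant held 26.6% of the wild-type level. These genotype levels are on the scale of normalized expression and were derived from the authors' mean over all libraries and their fold change, so they carry no error of their own. The samples are bulk tissue, in which fewer cells of a type and less RNA per cell cannot be told apart.

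Stfa3 was the most abundant stefin A gene and had the smallest p. The authors' deposited table gave a mean expression of 134, from which followed an implied level of 45.8 in GNAQ R183Q skin and 221 in wild-type skin. It fell 4.83-fold, a log2 fold change of -2.27 with an implied standard error of 0.33, an implied 95% interval from -2.91 to -1.63, and p = 1.75e-09 after adjustment (the authors' deposited table). Its mean z-score was -0.881 in the mutant and 0.881 in wild type in the authors' deposited table, with medians of -0.874 and 0.872. Given these values the lowest wild-type library must lie above the highest mutant library, so the genotypes did not overlap for Stfa3.

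Cstdc5, a stefin A-like gene that forms the closest pair with Stfa1, was next in abundance. Its implied level was 29.7 in GNAQ R183Q skin and 114 in wild-type skin, and it fell at a log2 fold change of -1.94, with an implied 95% interval from -2.83 to -1.05 and p = 0.00155 after adjustment (the authors' deposited table). Its libraries did not overlap either. The mutant median z-score of -1.01 was below the mutant mean of -0.808 in the authors' deposited table, so the highest mutant library lay farther from the middle ones than the lowest did.

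Csta1, the gene that bears the name of the human CSTA, had an implied level of 29.5 in GNAQ R183Q skin and 93.5 in wild-type skin. It fell at a log2 fold change of -1.67, with an implied 95% interval from -2.65 to -0.68 and p = 0.0343 after adjustment (the authors' deposited table). Its mean z-scores of -0.731 in the mutant and 0.731 in wild type allow an overlap of the libraries, so separation was not shown. Stfa1 stood just outside the threshold, with an implied level of 18.8 in GNAQ R183Q skin and 50.6 in wild-type skin. Its log2 fold change was -1.42, with an implied 95% interval from -2.33 to -0.52 and p = 0.0588 after adjustment (the authors' deposited table). Csta1 was thus the last stefin A gene inside the threshold and Stfa1 the first outside it, and their intervals overlapped over most of their length.

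Stfa2 had the steepest change of the 7, at a low level. The authors' deposited table gave a mean expression of 7.19, under the 26.8 units that correspond to 1 CPM here, with an implied level of 1.32 in GNAQ R183Q skin and 13.1 in wild-type skin. It fell at a log2 fold change of -3.31, with an implied 95% interval from -5.18 to -1.45 and p = 0.0214 after adjustment (the authors' deposited table). With 1 unit added to both implied levels its log2 fold change was -2.60. Genes under 1 CPM were rarely called lower, in 0.345% of 5799 genes, against 3.31% of the 14353 above it. The libraries of the genotypes did not overlap for Stfa2, so 3 of the 7 genes (Stfa3, Cstdc5 and Stfa2) were fully separated and lower, beside 3.83% of all genes.

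Stfa2l1 and Cstdc4 were the least abundant and did not pass. Stfa2l1 had an implied level of 5.41 in GNAQ R183Q skin and 6.02 in wild-type skin, and its log2 fold change was -0.15, with an implied 95% interval from -2.48 to 2.17. Cstdc4 had an implied level of 3.39 in GNAQ R183Q skin and 5.98 in wild-type skin, and its log2 fold change was -0.82, with an implied 95% interval from -3.47 to 1.83. The authors' deposited table gave them adjusted p-values of 0.977 and 0.839. Both intervals contain 0 and also the fold change of Stfa3, so neither no change nor a decrease as large as that of Stfa3 could be told from these values. In the mutant the median z-scores of -0.650 for Stfa2l1 and -0.517 for Cstdc4 lay well below the means of -0.0980 and -0.204 in the authors' deposited table, so for each gene the highest mutant library lay farther from the middle ones than the lowest did.

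**Figure D1:**
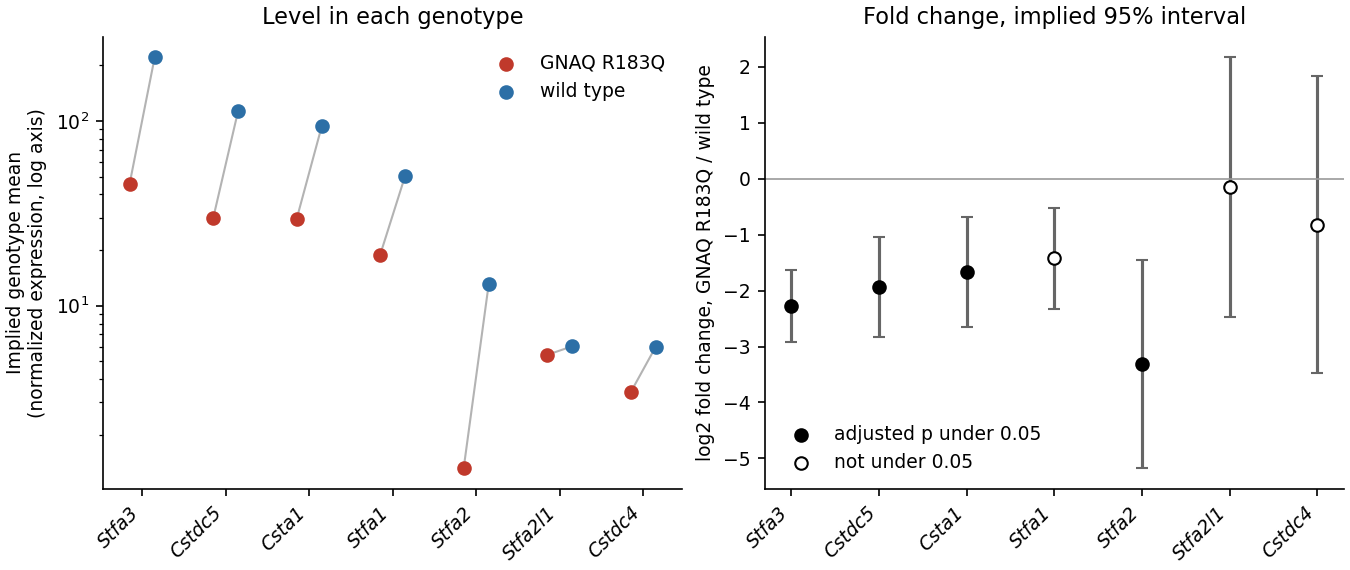
Left, implied mean level of each stefin A gene (normalized expression, log axis) in GNAQ R183Q (red) and wild-type (blue) skin, 4 libraries each, joined by a line per gene. Right, log2 fold change with its implied 95% interval, filled where the authors' adjusted p is under 0.05: the 5 most negative genes have intervals wholly below 0, from Stfa2 at -3.31 to Stfa1 at -1.42, and those of Stfa2l1 and Cstdc4 cross it.

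**Figure D2:**
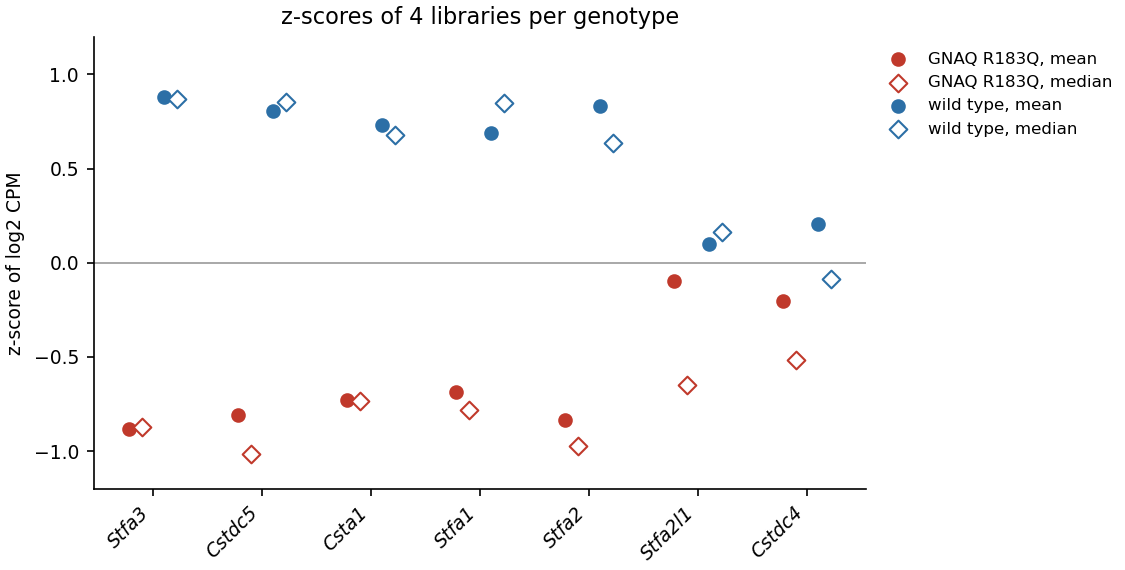
Mean (circles) and median (diamonds) z-score of log2 CPM over the 4 libraries of each genotype for each stefin A gene, GNAQ R183Q in red and wild type in blue. The genotypes stand far apart for Stfa3, at -0.881 and 0.881, and close together for Stfa2l1, at -0.0980 and 0.0980, where the mutant median lies well below its mean.

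The order of the levels between genes was judged per length of transcript. Per 1000 bases, mean expression was 324 for Stfa3, 116 for Cstdc5, 56.3 for Stfa1, 22.1 for Csta1, 15.3 for Stfa2, 13.6 for Stfa2l1 and 11.3 for Cstdc4. Csta1 has an annotated transcript of 2783 bases and another of 422, and with the shorter one its value would be 146, above Cstdc5. The neighbours Stfa2, Stfa2l1 and Cstdc4 in that order lie close together, and no spread over libraries is at hand to tell them apart.

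The same 4 genes made up most of the cluster's RNA in both genotypes. Stfa3 made up 34.2% of the summed implied level in GNAQ R183Q skin and 43.9% in wild-type skin, and Cstdc5 22.2% in GNAQ R183Q skin and 22.6% in wild-type skin. Csta1 contributed 22.004% in GNAQ R183Q skin and 18.5% in wild-type skin, and Stfa1 14.1% in GNAQ R183Q skin and 10.03% in wild-type skin. These shares carry no error, and the implied intervals of the 4 fold changes behind them overlap.

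Genes on either side of the cluster were not called. Of the 10 measured genes nearest to it on chromosome 16, 5 on each side, 0 fell and 0 rose by the authors' DESeq2 threshold, with 0 lower and 1 higher at an unadjusted p of 0.05. Over all genes the shares were 2.46% and 0.63%, and 8.23% and 5.94% at the unadjusted p. Counts this low among 10 genes are near those shares and say little about the neighbours. The rebuilt linear model called 0 lower after adjustment, as it did of all genes, so that count says nothing about these neighbours. Their log2 fold changes ran from -0.22 for Ildr1 to 0.85 for the predicted gene Gm41450, with a median of -0.03. Ccdc58, next but one before Csta1, was at -0.20 with an implied 95% interval from -0.58 to 0.18, and Casr, the calcium-sensing receptor gene right after Stfa3, was at 0.54 with an interval from -0.99 to 2.07. The interval of Casr is wide at its mean expression of 6.42 in the authors' deposited table.

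**Figure D3:**
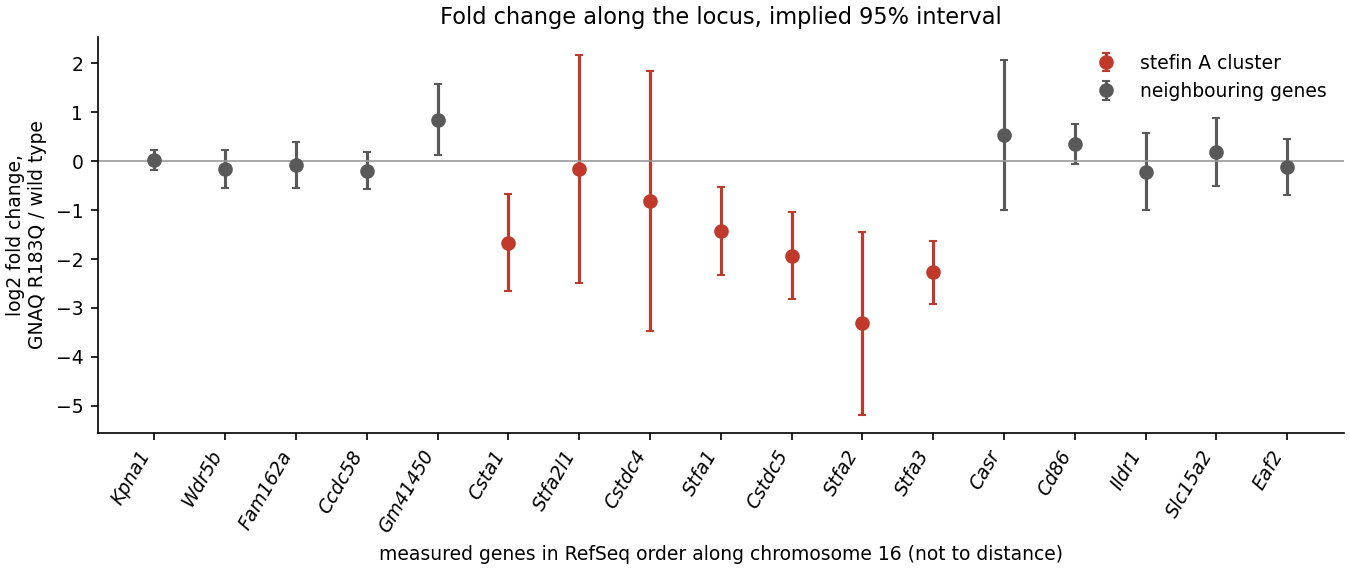
Log2 fold change, mutant over wild type, with the implied 95% interval for the 7 stefin A genes (red) and the 5 measured genes on either side (grey), in RefSeq order along chromosome 16, not to distance. The red points run from -3.31 to -0.15 and the grey points from -0.22 to 0.85.

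None of the measured papain family genes, their relatives or legumain, a wider list than the proteases that stefin A inhibits, passed the test. Of these 14 genes 0 fell and 0 rose by the authors' DESeq2 threshold, with 1 lower and 0 higher at an unadjusted p of 0.05, and the median log2 fold change was -0.14. Among all genes 2.46% were called lower and 0.63% higher, and 8.23% and 5.94% at the unadjusted p. Such low counts among 14 genes are near those shares and say little about the list. The rebuilt linear model called 0 lower after adjustment, as it did of all genes, so that count says nothing about this list. The gene lower at the unadjusted p was Ctsh, the cathepsin H gene, at -0.39 with an implied 95% interval from -0.78 to -0.01 and p = 0.343 after adjustment (the authors' deposited table). Cathepsins L, S and B are among the known targets of stefin A and were looked up for that reason, after their values were seen. Ctsl had an implied level of 3723 in GNAQ R183Q skin and 3205 in wild-type skin, a log2 fold change of 0.22 with an interval from -0.03 to 0.46. Ctss was at 0.29, with an interval from -0.01 to 0.58, and Ctsb at 0.01, with an interval from -0.22 to 0.24. Each of these 3 intervals contains 0, whereas that of Ctsh does not. The summed level of the 14 genes in GNAQ R183Q skin was 96.7% of that in wild-type skin.

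None of the other cystatins passed the test. Of 8 measured genes in the list of other cystatins 0 fell and 0 rose by the authors' DESeq2 threshold, and 2 were lower and 0 higher at an unadjusted p of 0.05. At the unadjusted p the shares of all genes were 8.23% and 5.94%. By the authors' threshold they were 2.46% and 0.63%, so 0 calls among 8 genes say little about the list. The median log2 fold change was -0.68, with 7 negative values and 1 positive. Cstad, counted among the 8 at -0.86, is not a cystatin, and 4 of the 8 reached 1 CPM. As among all genes, the rebuilt linear model called 0 of the list lower after adjustment. Cst3, the secreted inhibitor cystatin C, had the smallest p, with an implied level of 1428 in GNAQ R183Q skin and 2284 in wild-type skin, a log2 fold change of -0.68 and p = 0.0724 after adjustment (the authors' deposited table). Cstb, which encodes stefin B, the other type 1 cystatin, and was looked up for that reason, was at -0.44 with an implied 95% interval from -0.98 to 0.09. Cst6, cystatin E/M, an epidermal inhibitor of cathepsin L and legumain, was the other gene with an unadjusted p under 0.05, at -1.29 with an interval from -2.30 to -0.27.

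Genes of the cornified envelope, into which stefin A is built, were lower alongside it. Of 21 measured genes in an envelope and cross-linking list 17 fell and 0 rose, against 2.46% and 0.63% of all genes. The list median log2 fold change was -1.59, near the -1.67 of the stefin A genes. The list also holds the keratin genes Krt1 and Krt10 and the protease gene Casp14. Lor, for loricrin, the main envelope protein, fell at -3.70, Sbsn at -1.76, the filaggrin-processing protease gene Casp14 at -1.49, Krt10 at -1.31, Evpl, for the plaque protein envoplakin, at -1.08, and Krt1 at -1.08 in the authors' deposited table. Of 13 genes in a list of other epidermal inhibitors, 7 fell and 0 rose, with a median of -1.28. They were the serpins Serpinb2 at -3.39, Serpinb5 at -1.28, Serpinb12 at -1.42 and Serpinb3a at -1.06, the inhibitors Wfdc5 at -3.41 and Spink5 at -1.54, which restrains epidermal kallikreins, and Tmprss4 at -1.40 in the authors' deposited table. Tmprss4 is a membrane protease and not an inhibitor. The rebuilt linear model called 0 genes of the envelope and inhibitor lists lower after adjustment, as it did of all genes. These genes share the libraries of the stefin A genes, and the part of keratinocyte number or maturity in the stefin A values was not tested.

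The layer markers moved unequally beside the stefin A genes. Of 12 periderm markers 5 fell and 1 rose, against 2.46% and 0.63% of all genes, with a median of -0.90. The fallen genes were Ly6d at -1.64, Lgals3 at -1.58, the keratin gene Krt4, Sfn at -0.91 and Krt13 at -2.06, and Cldn6 rose at 1.00 in the authors' deposited table. Of 8 basal keratinocyte markers 1 fell, Krt15 at -1.01, and 0 rose, with a median of 0.04, and of 8 dermal fibroblast markers 1 fell, Dpt at -0.50, and 0 rose, with a median of -0.17. All 8 markers of each of these lists stood above 1 CPM, as did all 12 periderm markers, so epidermal and dermal genes of the labelled back skin were both detected. After adjustment the rebuilt linear model called 0 periderm, basal keratinocyte or dermal fibroblast markers lower, as among all genes.

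Blood cells that could carry stefin A RNA were examined through their own markers. Of 14 measured neutrophil markers 0 fell and 0 rose by the authors' DESeq2 threshold, and 1 was lower and 0 higher at an unadjusted p of 0.05. The shares of all genes were 2.46% and 0.63%, and 8.23% and 5.94% at the unadjusted p. Only 0.345% of genes under 1 CPM were called lower, so 0 calls say little about these markers. As among all genes, the rebuilt linear model called 0 of these markers lower after adjustment. The median was -0.17, with 7 negative and 7 positive values, and S100a9 had the smallest p, at -0.68 with p = 0.263 after adjustment (the authors' deposited table). Their summed implied level was 218 in GNAQ R183Q skin and 331 in wild-type skin, and 3 of the 14 stood above 1 CPM. The granule genes of the list did not all lie on one side, and 0 of these 9 passed. Those of the later granules had negative log2 fold changes in the authors' deposited table, -1.72 for Ltf, -1.59 for Camp, -1.43 for Lcn2, -1.34 for Ngp, -0.50 for Mmp8 and -0.40 for Mmp9. Those of the primary granules were at 0.06 for Mpo, 0.14 for Prtn3 and 0.34 for Elane in the authors' deposited table. For each of these 9 genes 0 lay inside the implied 95% interval. Ngp, the most abundant of them, had an implied level of 23.7 in GNAQ R183Q skin and 59.9 in wild-type skin. The remaining markers of the list were all positive in the authors' deposited table. They were Csf3r at 0.06, S100a8 at 0.17, Cxcr2 at 0.37 and Il1b at 0.54, each with an implied 95% interval that contains 0. The listed markers Retnlg and Ly6g were not analysed here, and the part of neutrophils in the stefin A values was not tested.

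Macrophage markers, 15 measured, had 0 lower and 0 higher genes by the authors' DESeq2 threshold, and 1 lower and 0 higher at an unadjusted p of 0.05. These counts are near the shares of all genes, 2.46% and 0.63%, and 8.23% and 5.94% at the unadjusted p. After adjustment the rebuilt linear model called 0 of all genes lower, and so 0 of these markers. Their median was -0.03, and the smallest p was that of Pf4, at -0.65 with p = 0.143 after adjustment (the authors' deposited table). Of 11 mast cell markers 3 fell and 0 rose, with a median of -0.65: Tpsb2 at -1.11, Cma1 at -0.91 and Srgn at -0.56 in the authors' deposited table. For the mast cell markers too, the rebuilt linear model called 0 lower after adjustment. Summed implied levels of macrophage markers were 11758 in GNAQ R183Q skin and 11497 in wild-type skin, and those of mast cell markers 11818 in GNAQ R183Q skin and 18372 in wild-type skin. The part of these cells was not tested. The lowest mean expression of any gene in the authors' deposited table was 0.657, so no marker of any list could be listed at 0.

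**Figure D4:**
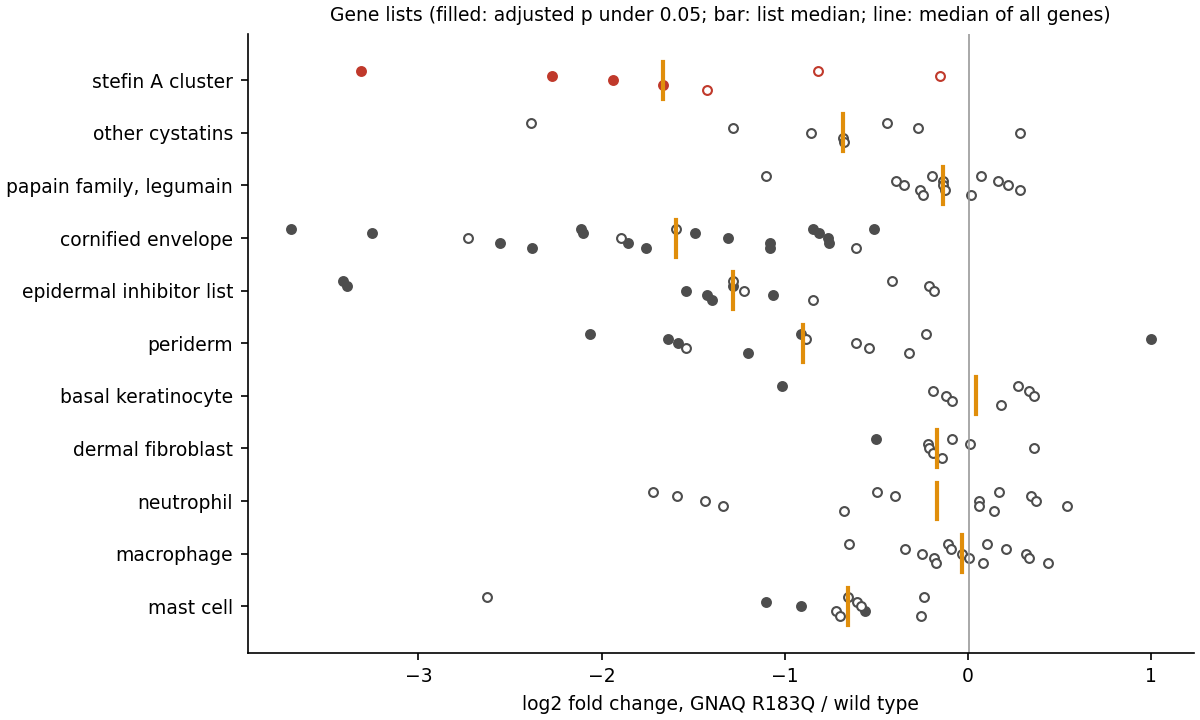
Log2 fold change, mutant over wild type, for each gene (points, filled where the authors' adjusted p is under 0.05) of the stefin A cluster (red) and 10 other lists (grey), with the list median as an orange bar and the median of all genes as a line. The stefin A median of -1.67 lies near that of the cornified envelope list at -1.59, while the papain family list is centred at -0.14.

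The genes whose z-scores lay nearest to those of Stfa3 were sought among 550 other called genes of at least 1 CPM with an established symbol. Likeness was the Euclidean distance over 4 values, the mean and the median of each genotype, which summarise 8 libraries and share them with Stfa3. The nearest were Tprg at 0.0186, Itpkb at 0.0197, Pnpla1 at 0.0232, Aox4 at 0.0267 and Casp14 at 0.0294. Their log2 fold changes were -2.06 for Tprg, -0.93 for Itpkb, -1.08 for Pnpla1, -2.33 for Aox4 and -1.49 for Casp14 in the authors' deposited table. The likeness is a description and carries no test.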

How the data were processed

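Total RNA of embryonic back skin in 4 GNAQ R183Q and 4 wild-type samples was sequenced from stranded TruSeq libraries, per the labels' protocols, and groups and replicate numbers came from the sample titles. DESeq2 and the build mm39 are listed in the submitters' processing notes; aligner, counter, annotation and read length are not stated there. The deposited table holds the authors' average expression, a signal read here as normalized counts; their log2 fold change of GNAQ R183Q over control; and their p-value and adjusted p-value, all per the file headers. The authors also deposited a score per gene, the z-score of log2 CPM over libraries, averaged per genotype in 2 ways (mean, median), per the file headers. Adjusting the p-values over 20152 genes by Benjamini-Hochberg gave the deposited values back.

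No test of its own was run on the libraries. The threshold was an authors' adjusted p of 0.05. Standard errors were implied from fold change and p under a normal reference, and genotype levels from average expression and fold change. The level of 1 CPM was read as 26.8 units, a millionth of the summed average expression. A linear model p with 6 residual degrees of freedom was rebuilt from the mean z-scores. Libraries were called fully separated where an overlap would need a sum of squared z-scores above 7, the value for 8 libraries and a sample SD; the largest that any gene required was 7.00. Both steps were tested on simulated data. Coding sequences and windows of 50 bases came from GENCODE vM21 transcripts, matched by symbol or RefSeq accession for all 7 genes, and promoters, also matched for all 7, from RefSeq (GRCm38.p6). Python 3.11.15, SciPy 1.17.1, statsmodels 0.14.6 and Biopython 1.88 were used.

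The cluster, the lists and the tests were chosen with earlier results of these data known. Named were all members, of each list up to 6 called genes per direction or the one of smallest p, 5 measured neighbours per side and the 5 genes most like the most abundant member. Cstb, Cst6, Cstad, Ctsl, Ctss, Ctsb, Serpinb3a, Csf3r, S100a8, Cxcr2, Il1b and the 9 granule genes were named outside that rule, after their values were seen. Alternatives covered the call rule, a minimum level, centring, the rebuilt linear model, a pseudocount of 1 and the near-identical copies.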

Additional observations from a re-analysis of the deposited data

How the results depend on the processing

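The count of 4 fallen stefin A genes was also 4 with a change of at least 2-fold, after centring on expressed genes, and after adjusting again over genes of at least 1 CPM, where Stfa2 was left out and Stfa1 passed with an adjusted p of 0.0446. It was 5 at an unadjusted p of 0.05 and 2 at an adjusted p of 0.01. Without the members at least 90% identical in coding sequence to another gene of the cluster, an alternative chosen after seeing the data, 2 genes were left, Stfa3 and Csta1, and both had fallen, so the count was 2. The linear model rebuilt from the mean z-scores, which shares no spread between genes, called 0 members and 0 of all genes lower, against 495 in the authors' table; at its unadjusted p of 0.05, 5 members and 6.51% of all genes were lower. With a change of at least 2-fold 197 genes were lower. The median log2 fold change of the members ranged from -1.97 to -1.66 over these alternatives. All 7 fold changes kept their sign, but this was no check of the signs. The median used for centring was only -0.0014, and the other alternatives keep the sign by construction.

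No paired analysis was possible because the table holds no values per library, and leaving out each replicate was not run for the same reason. Intervals of Stfa2l1 and Cstdc4 are limited by their low level, and those of the near-identical copies take no account of reads that match several genes.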
